A study of Mus musculus with 10 samples.

Results

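The genes of MHC class I antigen presentation and of the immunoproteasome were followed in the pancreas of mice that express IL-23 in the skin. These genes are B2m, H2-K1, H2-D1, Tap1, Tap2, Tapbp, Psmb8, Psmb9, Psmb10 and Nlrc5, which were chosen by name. All 10 were among the 24062 genes with deposited counts, and 9 of them passed the filter on low counts together with 13882 genes in all. In the KSR23 mice 8 of the 9 tested genes were higher than in the WT mice, by 1.38-fold to 2.87-fold. Psmb10, which encodes a catalytic subunit of the immunoproteasome, was lower, at 0.661 of its WT level. Nlrc5, too rare in WT mice to enter the test, had 4 to 11 counts per library there and 52 to 108 in KSR23 mice.

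KSR23 mice are R23 mice, which hold an IL-23 cassette, crossed with K14-cre mice. In the latter the keratin 14 promoter directs Cre recombinase and so IL-23 to keratinocytes. The WT mice were their littermates, and mice of both groups were sampled at P5. The R23 line had been backcrossed to C57BL/6, and the study's methods do not state the background of the K14-cre line. RNA of the whole pancreas was sequenced for 5 WT and 5 KSR23 mice, with 1 library per mouse. The question was how the pancreas of these mice differs when IL-23 is made in the skin.

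Class I molecules show fragments of a cell's own proteins at its surface to CD8 T cells. The fragments are cut by the proteasome, pumped into the endoplasmic reticulum by the TAP transporter and placed in the groove of a heavy chain that is held by beta-2 microglobulin. Interferons are known to raise these genes in many cell types. They also raise 3 catalytic subunits (encoded by Psmb8, Psmb9 and Psmb10) that replace the standard subunits Psmb5, Psmb6 and Psmb7 when a new proteasome is assembled. NLRC5 is a coactivator that is recruited to class I promoters.

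Of the 10 genes, 7 lie in or beside the MHC on chromosome 17 (GRCm38 with GENCODE M21 gene limits). Tapbp spans 33915899 to 33929292, H2-K1 33996017 to 34000347, Psmb9 34181987 to 34187764, Tap1 34187553 to 34197225, Psmb8 34197721 to 34201454, Tap2 34203527 to 34216321 and H2-D1 35262730 to 35267499. B2m lies on chromosome 2 (122147686 to 122153083). Psmb10 (105935735 to 105938444) and Nlrc5 (94434356 to 94527272) lie on chromosome 8. All are protein-coding, with H2-K1, Psmb9 and Psmb10 on the minus strand.

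The promoters of the heavy chain and light chain genes are shown because they hold the elements on which the class I regulators described further on are known to act. The sequences are RefSeq promoters (GRCm38.p6), which reach from 250 bases before to 50 bases after each annotated start, and 8 of the 10 genes have an entry. Tap2 and Nlrc5 have none. The stretches of B2m (chr2:122147514-122147643, plus strand) and H2-K1 (chr17:34000354-34000483, minus strand) run 5′ to 3′ along the gene, upstream of its start. Capitals mark matches on either strand to an interferon regulatory factor core (AANNGAAA), the NF-κB consensus, TGACG of the X2 element and ATTGG of the Y box.
B2m: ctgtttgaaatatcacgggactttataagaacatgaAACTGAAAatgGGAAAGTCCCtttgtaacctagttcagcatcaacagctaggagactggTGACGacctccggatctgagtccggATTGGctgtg
H2-K1: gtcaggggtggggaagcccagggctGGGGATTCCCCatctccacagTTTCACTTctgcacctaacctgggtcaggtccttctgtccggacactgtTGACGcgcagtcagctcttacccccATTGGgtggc

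In both genes, and in H2-D1, exactly 20 bases separate TGACG from ATTGG. The 30 bases that hold the pair are set out for the 3 genes to show what they share and what they do not (chr2:122147609-122147638, plus strand, chr17:34000359-34000388, minus strand, and chr17:35262993-35263022, plus strand).
B2m: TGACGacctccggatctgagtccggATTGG
H2-K1: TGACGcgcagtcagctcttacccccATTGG
H2-D1: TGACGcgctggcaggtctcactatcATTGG
Within the 20 bases between the elements, H2-K1 and H2-D1 shared 13 bases, B2m and H2-K1 shared 3, and B2m and H2-D1 shared 2. Over the 130-base stretch printed for H2-K1, the matching stretch of H2-D1 was identical at 119 positions (91.5%). The Y box begins 53 bases before the RefSeq start of B2m, 16 before that of H2-K1 and 76 before that of H2-D1. H2-K1 has 2 RefSeq promoter entries, and the first was used here. One GENCODE transcript of H2-D1 starts farther upstream and has the pair in its untranslated first exon.

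Among 32851 RefSeq promoters, 31 (0.0944%), belonging to 27 genes, held TGACG and ATTGG at this spacing, on either strand. B2m, H2-K1 and H2-D1 are among the 27 genes, and the spacing was chosen after these promoters were read. The single elements are far more common. AANNGAAA occurred in 23.9% of promoters and in 3 of the 8 genes with an entry, B2m, H2-K1 and H2-D1. The NF-κB consensus occurred in 4.51% of promoters and in the same 3 genes. TGACG occurred in 20.8% of promoters and in 5 of the 8, with Tap1 and Psmb9 added. ATTGG occurred in 37.4% and in 6 of the 8, with Tapbp as the sixth. Tap1 and Psmb9 are read in opposite directions from starts that lie 225 bases apart (chr17:34187331-34187555), with TGACG 81 bases from the start of Tap1 and a Y box 3 bases from that of Psmb9. In Psmb8 and Psmb10 none of these letters matched within the window. A match is a description of sequence and was not tested as a binding site.

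Gene counts summed to 26830235 to 33189132 per WT library and to 16715976 to 57784136 per KSR23 library, the fewest in KSR23 replicate 3. A count of 3, taken as the floor, corresponded to 0.0519 to 0.179 CPM (counts scaled by library size) across the libraries, for counting error only. Il23a, which encodes a subunit of IL-23, had counts of 6, 4, 9, 6 and 1 across the WT mice, all below the 48, 35, 21, 43 and 48 of the KSR23 mice. Il12b, which encodes the other subunit, p40, had counts of 0, 7, 1, 2 and 0 in the WT mice. In the KSR23 mice it had 13, 3, 3, 9 and 7, and its CPM overlapped between the groups. Whether transcripts of the cassette are counted in either gene was not tested. All 12 acinar cell markers of the labelled tissue passed the filter. KSR23 replicate 3 stands apart by its neutrophil markers, and the values of B2m, H2-K1, H2-D1 and Psmb8, where it is set apart, are given with and without it.

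The light chain B2m and the 2 classical heavy chains rose together. B2m, which encodes beta-2 microglobulin, had 77.4, 74.7, 92.9, 86.4 and 67.4 CPM in the WT mice and 162.5, 154, 301.5, 147 and 132 CPM in the KSR23 mice. Every KSR23 mouse was above every WT mouse, and replicate 3 was far above its group. The mean went from 79.8 ± 9.98 to 179.5 ± 69.1 CPM (SD, n = 5 each), a log2 fold change (FC) of 1.17 (± 0.169 standard error, SE, Benjamini-Hochberg adjusted p = 4.11e-05 over all tested genes in the quasi-likelihood test of edgeR). Without KSR23 replicate 3 the log2 FC of B2m was 0.90.

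H2-K1, the heavy chain of the K molecule, had 103, 101, 93.4, 85.6 and 81.6 CPM in the WT mice and 215, 197, 394.5, 190 and 204 CPM in the KSR23 mice. The groups did not overlap, and replicate 3 was again the highest. H2-K1 had a log2 FC of 1.37 (± 0.158 SE, adjusted p = 2.89e-06 in the same edgeR test) and 1.12 without that mouse. H2-D1, the heavy chain of the D molecule, went from 48.2, 56.7, 53.4, 52.4 and 49.0 CPM to 99.7, 101, 171.5, 85.1 and 84.7 CPM. The groups were again apart. The log2 FC of H2-D1 was 1.06 (± 0.146 SE, adjusted p = 2.50e-05, edgeR) and 0.84 without replicate 3. Of the 75-base windows of their longest coding transcripts, 98.4% for H2-K1 and 92.9% for H2-D1 occur in no other annotated gene, so reads from most of their length can be told apart from other heavy chain genes.

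The genes that carry peptide to the heavy chain also rose. Tap1, a chain of the TAP peptide pump, had 7.15, 7.01, 8.22, 6.23 and 7.45 CPM in the WT mice and 24.6, 19.5, 23.4, 18.6 and 17.8 CPM in the KSR23 mice. Its groups lay well apart, with no mouse standing out. Its log2 FC of 1.52 (± 0.113 SE, adjusted p = 1.18e-08, edgeR) was the largest of the 9 tested genes and ranked 158 among the 13882 tested genes. Tap2, which encodes the partner chain, had 12.4, 10.8, 11.4, 11.3 and 11.03 CPM in WT mice and 21.1, 22.2, 26.6, 17.7 and 20.5 CPM in KSR23 mice. It also rose without overlap, with a log2 FC of 0.92 (± 0.102 SE, adjusted p = 1.92e-06, edgeR). Tapbp encodes tapasin, which bridges TAP and the empty class I molecule. Its 94.3, 88.0, 92.8, 81.6 and 92.0 CPM in WT mice compared with 141, 124, 123, 121 and 110 CPM in KSR23 mice. The rise was the smallest of the 8, a log2 FC of 0.46 (± 0.0706 SE, adjusted p = 7.08e-05, edgeR).

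The 3 immunoproteasome subunits did not move together. Psmb8, the subunit with chymotrypsin-like activity, had 10.4, 7.80, 9.97, 7.26 and 7.45 CPM in WT mice and 23.2, 21.4, 28.9, 23.4 and 21.5 CPM in KSR23 mice. Psmb9, which takes the place of the caspase-like Psmb6, had 5.12, 4.26, 4.32, 3.61 and 3.91 CPM in WT mice and 8.93, 9.75, 12.4, 7.25 and 8.23 CPM in KSR23 mice. Both rose without overlap. The log2 FC was 1.46 for Psmb8 (± 0.119 SE, adjusted p = 3.66e-08, edgeR), and 1.39 without KSR23 replicate 3. It was 1.12 for Psmb9 (± 0.148 SE, adjusted p = 1.52e-05, edgeR). Of the exon bases of Psmb9, 5.79% overlap those of Tap1 on the opposite strand, and for Tap1 the share is 3.87%. The counting is not stated to use strand, so reads in that overlap cannot be assigned to either gene.

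Psmb10, which takes the place of the trypsin-like Psmb7, went the other way. It had 162, 116, 120, 142 and 146 CPM in the WT mice and 80.2, 89.1, 94.7, 89.6 and 99.8 CPM in the KSR23 mice. No KSR23 mouse reached the lowest WT mouse, and the mean went from 137 ± 18.9 to 90.7 ± 7.27 CPM (SD, n = 5 each). Psmb10 thus had a log2 FC of -0.60 (± 0.0877 SE, adjusted p = 4.72e-05, edgeR), rank 13061 of 13882 from the largest rise downward. All 75-base windows of its transcript are unique. Ctrl, the chymotrypsin-like protease gene of acinar cells, starts 1872 bases beyond the 3′ end of Psmb10 on the same strand, and its own log2 FC was -2.90 (adjusted p = 1.81e-10, edgeR). The within-library log2 ratio of Psmb10 to Ctrl lay from -6.21 to -5.79 in WT mice against -4.10 to -3.21 in KSR23 mice. The part of this neighbour in the counts of Psmb10 was not tested.

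Nlrc5, the class I coactivator, had 7, 6, 11, 4 and 4 counts in the WT libraries and 108, 52, 58, 75 and 83 in the KSR23 libraries. These counts came to 0.245, 0.206, 0.386, 0.129 and 0.149 CPM in WT mice against 2.72, 1.54, 3.24, 1.87 and 1.48 CPM in KSR23 mice. The groups were far apart, although the WT counts lie close to the floor. WT replicates 4 and 5 had under 5 counts, so the gene did not pass the filter, and its CPM was compared between the groups by exact permutation, two-sided (p = 0.00794, the smallest p that 5 against 5 allow). With every gene with a count kept in the fit, the log2 FC of Nlrc5 was 3.24 (± 0.356 SE, adjusted p = 4.64e-07, edgeR).

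**Figure D1:**
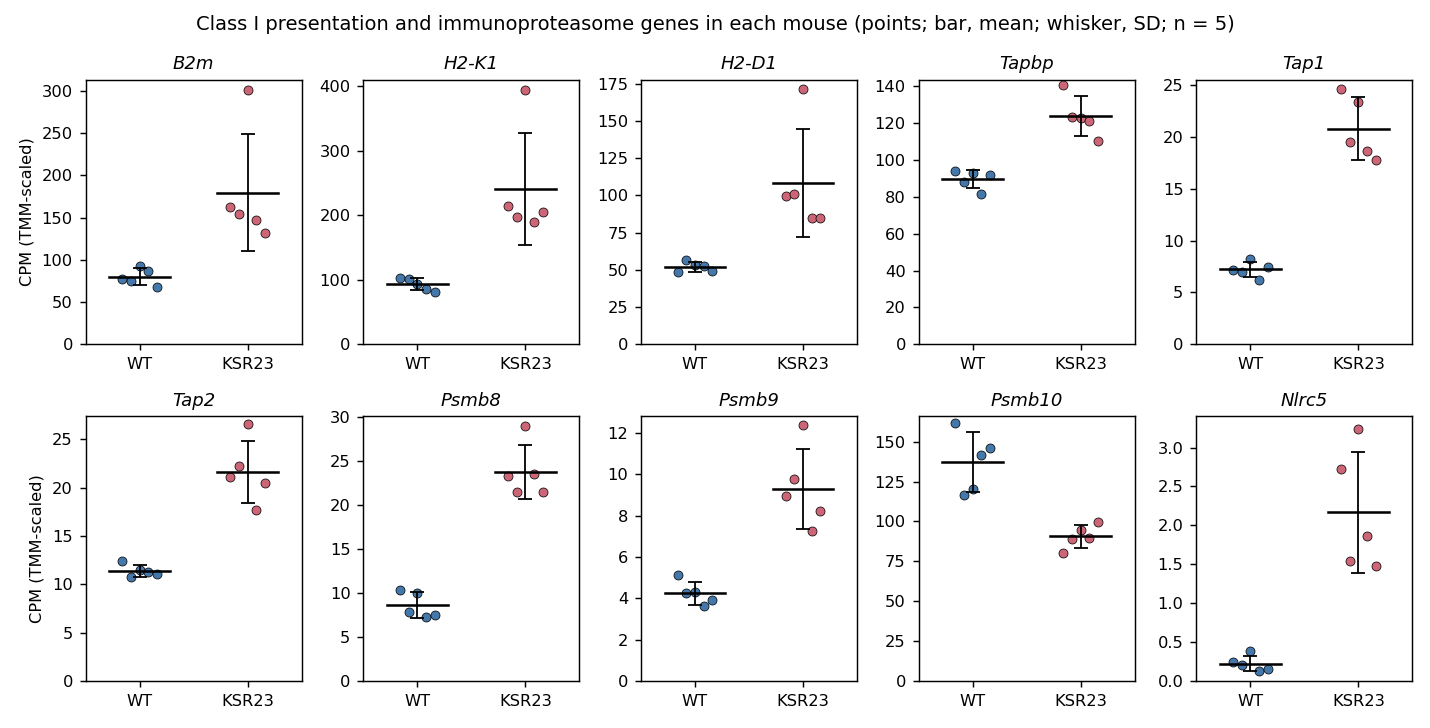
CPM on TMM-scaled library sizes (y axes, linear and starting at 0) of the 10 genes in each WT and KSR23 mouse. Points are mice, bars the mean and whiskers the SD (n = 5 each). In 9 panels all KSR23 points lie above all WT points, and in the Psmb10 panel they lie below. One KSR23 mouse, replicate 3, is highest for B2m at 301.5 CPM, H2-K1 at 394.5 CPM and H2-D1 at 171.5 CPM.

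The shares of all tested genes give the scale for these counts and for the list counts that follow, which were not tested against them. Of the 13882 tested genes, 16.2% were called higher and 14.8% lower at an adjusted p under 0.05, against 8 and 1 of the 9 tested class I and immunoproteasome genes. Their median log2 FC was 1.12, or 0.90 without KSR23 replicate 3, and that of all tested genes was -0.01. With the 9 genes at 105 counts or more in every library, none passed the filter through KSR23 mice alone. Of all tested genes, 10.7% had every KSR23 mouse above every WT mouse and 8.74% had every KSR23 mouse below. Among the 9 tested class I and immunoproteasome genes these were 8 and 1. Nlrc5, which is outside the tested set, also had every KSR23 mouse above every WT mouse. When libraries were scaled by their totals alone, calls over all genes shifted from 2250 higher and 2049 lower (52.3% higher) to 3075 higher and 1161 lower (72.6% higher). The median log2 FC of all genes then moved from -0.01 to 0.09. The 8 rises and the fall of Psmb10 kept their direction and call.

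Per length of transcript, the class I genes were at very different levels, so that CPM per kb was used to set one gene against another. In WT mice Psmb10 stood at 104.6 ± 14.4 and B2m at 92.8 ± 11.6 CPM per kb (SD, n = 5). Their difference is smaller than the SD of Psmb10. H2-K1 followed at 57.4 ± 5.73, Tapbp at 31.0 ± 1.77 and H2-D1 at 24.7 ± 1.64 CPM per kb. Psmb8 stood at 5.27 ± 0.911, Tap2 at 3.31 ± 0.176, Psmb9 at 3.14 ± 0.418 and Tap1 at 2.44 ± 0.245 CPM per kb. Tap2 and Psmb9 lay within a spread of each other. Nlrc5 was lowest, at 0.0295 ± 0.0135 CPM per kb. In KSR23 mice B2m was at 208.7 ± 80.4 and H2-K1 at 148.3 ± 53.6 CPM per kb. Replicate 3 was the highest mouse in both genes and widens both SDs, so their overlap does not tell the order within a mouse. By their means Psmb10 came next at 69.2 ± 5.55 and then H2-D1 at 51.6 ± 17.2 CPM per kb, with overlapping SDs. Tap1 stood at 7.03 ± 1.03, Psmb9 at 6.88 ± 1.44 and Tap2 at 6.28 ± 0.940 CPM per kb, with overlapping SDs. All these SDs are between mice, and the order of the genes within each mouse was not tested.

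The subunits of the immunoproteasome were then set against the standard subunits they replace, as a ratio within each library that no scaling can change. The log2 ratio of Psmb8 to Psmb5 counts was -1.77, -2.16, -1.78, -1.97 and -2.06 in WT mice and -0.31, -0.54, -0.01, -0.21 and -0.63 in KSR23 mice. Its mean rose by 1.61. In KSR23 replicate 3 the counts of both genes were nearly equal, without scaling for the length of their transcripts (1628 bases for Psmb8 and 899 for Psmb5). The log2 ratio of Psmb9 to Psmb6 ran from -5.50 to -5.13 in WT mice against -4.35 to -3.56 in KSR23 mice, a rise of 1.25. The log2 ratio of Psmb10 to Psmb7 was 1.86, 1.46, 1.47, 1.54 and 1.79 in WT mice and 1.08, 1.19, 1.26, 1.22 and 1.28 in KSR23 mice, and its mean fell by 0.42. None of the 3 ratios overlapped between the groups (two-sided exact permutation tests, p = 0.00794 each and the same after adjustment over the 3, n = 5 each). Psmb5, Psmb6 and Psmb7 themselves had log2 FCs of -0.13, -0.13 and -0.17, none of which passed the test (adjusted p = 0.226, 0.105 and 0.0572, edgeR). Of the windows of Psmb5 60.0% are unique, and of those of Psmb7 75.9%, so reads from the rest of these transcripts may not have been counted.

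**Figure D2:**
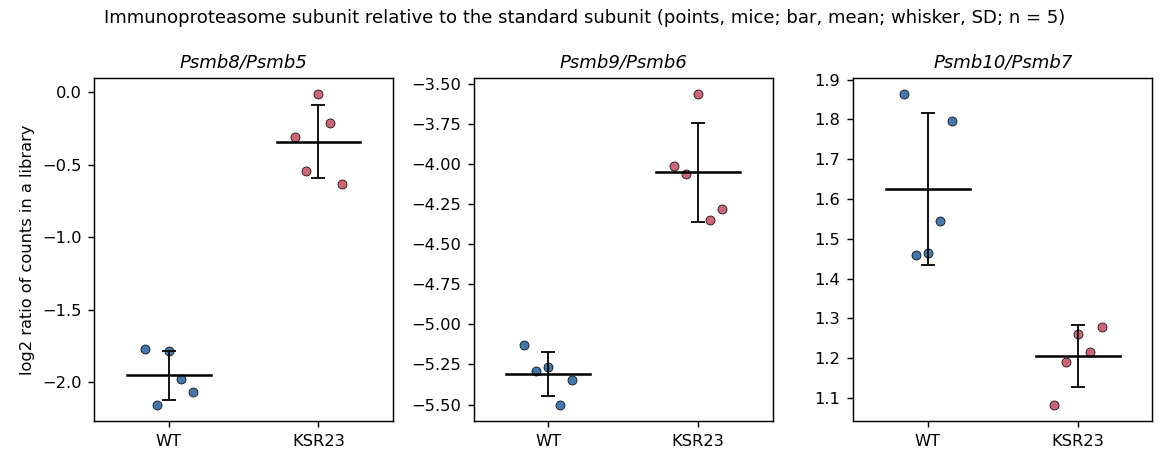
Log2 ratio of counts of each immunoproteasome subunit to the standard subunit it replaces (y axes, different ranges, not starting at 0) in WT and KSR23 mice. Points are mice, bars the mean and whiskers the SD (n = 5 each). Psmb8/Psmb5 and Psmb9/Psmb6 are higher in every KSR23 mouse, by 1.61 and 1.25 on average, and Psmb10/Psmb7 is lower in every KSR23 mouse.

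Further ratios, 5 in all, were chosen after the values had been seen and are given as a description, with no test. The log2 ratio of Tap1 to Tap2 averaged -0.66 in WT mice and -0.06 in KSR23 mice. That of Tap1 to Psmb9, which share their promoter region, averaged 0.77 in WT mice and 1.17 in KSR23 mice, with single mice at 0.48 to 0.93 and at 0.92 to 1.46. The log2 ratio of H2-D1 to H2-K1 averaged -0.83 in WT mice and -1.14 in KSR23 mice. That of H2-K1 to B2m averaged 0.22 in WT mice and 0.43 in KSR23 mice and overlapped between the groups. The fifth ratio, Psmb10 to Ctrl, is given above.

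Across mice, the 8 genes that rose did so in every KSR23 mouse. Averaged over the 8, the log2 CPM lay above the WT mean by 1.13, 1.05, 1.55, 0.91 and 0.92 in KSR23 replicates 1 to 5, and by -0.10 to 0.10 in the WT mice. Tapbp was the least raised of the 8 in each KSR23 mouse, at 0.30 to 0.65. The gene raised most was Tap1 in replicates 1 and 2, H2-K1 in replicate 3 and Psmb8 in replicates 4 and 5. The excess of replicate 3 was largest in B2m, H2-K1 and H2-D1. Its Tap1, at 23.4 CPM, and its Tapbp, at 123 CPM, lay within the range of the other KSR23 mice.

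Of 29 other class I and class I-like heavy chain genes, 10 could be tested, 4 were higher, 2 lower and 4 not called. The median log2 FC of 0.10 spans both kinds. Every tested gene of the H2 series was higher or not called, and both lower genes are class I-like. H2-T23, which encodes the Qa-1 molecule read by NK cell receptors, rose from 8.73 ± 1.11 to 21.5 ± 2.73 CPM (log2 FC 1.29, adjusted p = 8.52e-08, edgeR). H2-Q4 rose by 1.003 (adjusted p = 0.0233) and H2-M3, which presents formylated peptides, by 0.81 (adjusted p = 0.000464), both on the log2 scale in edgeR's test. Hfe, a class I-like regulator of iron uptake, rose by 0.32, and Mr1, which presents vitamin B metabolites, fell by 0.34 (adjusted p = 0.0357 and 0.0295, edgeR). Cd1d1, a class I-like molecule that presents lipids, fell by 0.60 on the log2 scale (adjusted p = 0.000381, edgeR). Of this list, 9 genes were at 0 in all libraries. They included H2-Q6, H2-Q7, H2-Q8 and H2-Q9. Of the windows of H2-Q6 and H2-Q7, 78.9% and 78.3% are unique, and why these genes are listed at 0 was not tested.

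All 8 other genes of peptide trimming and loading could be tested, and 4 were higher and none lower, with a median log2 FC of 0.28. Tapbpl, a tapasin relative that edits bound peptides, rose by 0.90 (adjusted p = 1.89e-06, edgeR). The log2 FC of the trimming peptidase Erap1 was 0.34 (adjusted p = 0.0231, edgeR). The loading chaperone Calr had 0.30 (adjusted p = 0.00604) and the disulphide isomerase Pdia3 0.26 (adjusted p = 0.00989) in the same edgeR fit. Canx, which holds new heavy chains, was not called at -0.19 (adjusted p = 0.0617, edgeR).

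Of the other proteasome genes, 3 were called higher, each by less than 0.3 on the log2 scale. Over all tested genes, 16.2% were called higher and 14.8% lower, and the lists below were not tested against these shares. Of the 14 genes of the standard 20S core, none was higher, 3 were lower and 11 were not called, and the median log2 FC was -0.15. The lower genes were the alpha-ring subunits Psma2 and Psma4 and the beta-ring subunit Psmb1, at -0.21, -0.20 and -0.17 (adjusted p = 0.0209, 0.0371 and 0.0424, edgeR). With libraries scaled by totals alone, none of the 14 was called lower and 1 was called higher, and the median was -0.06. Of 17 genes of the 19S cap, 1 was higher and 2 were lower, with a median of 0.01. Psmd6 had the largest change of this list, at -0.46 (adjusted p = 0.000105, edgeR), with Psmd4 at 0.22 (adjusted p = 0.0121) and Psmc6 at -0.21 (adjusted p = 0.0420). Of 10 activator and assembly genes, 2 were higher and 2 lower. The higher ones were Psme1 at 0.27 and Psme2 at 0.21 (adjusted p = 0.00367 and 0.0431, edgeR), which encode the PA28 ring, a proteasome activator that interferon is known to raise. Psme4, at -0.40, and the assembly chaperone Psmg1, at -0.23, were lower (adjusted p = 0.00683 and 0.0232, edgeR). With totals alone as the scaling, the cap list had 5 higher and 1 lower and the activator list 3 higher and none lower.

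**Figure D3:**
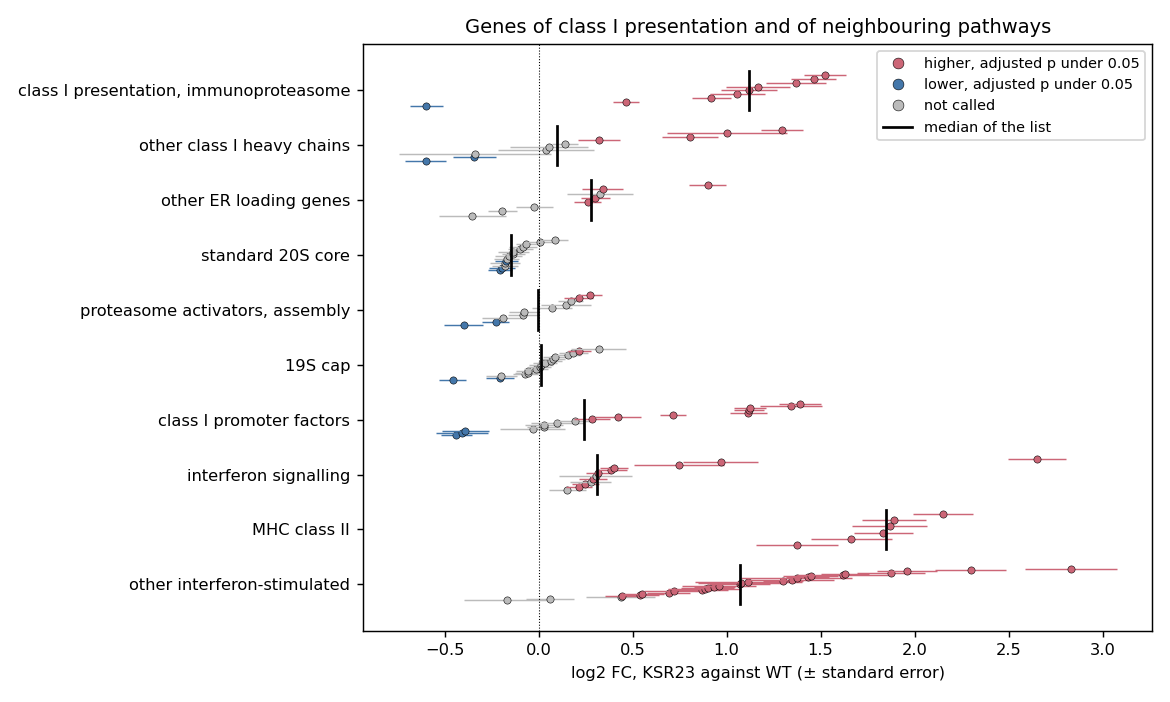
Log2 FC of KSR23 against WT (x axis) for each tested gene of 10 lists (y axis). The list of other class I heavy chains includes class I-like genes. Points are genes, whiskers the standard error, vertical strokes the median of the list, and colours show genes called higher, called lower or not called at an adjusted p under 0.05. The 9 class I and immunoproteasome genes lie between -0.60 and 1.52 with a median of 1.12, the 6 MHC class II genes all lie above 1.3, and the 20S core and 19S cap lie around 0.

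The transcription factors known to act on class I promoters moved in both directions. Of 17 listed genes 16 were tested, with 8 higher, 3 lower and 5 not called and a median log2 FC of 0.24. For scale, 16.2% of all tested genes were called higher and 14.8% lower. Irf1, an interferon-induced factor that binds the interferon regulatory factor element, had 12.4, 13.4, 12.8, 11.3 and 13.04 CPM in WT mice and 29.2, 26.4, 29.9, 27.2 and 24.5 CPM in KSR23 mice. It rose without overlap, by 1.12 on the log2 scale (adjusted p = 1.21e-08, edgeR). Irf8, a factor of myeloid cells, rose by 1.34 (adjusted p = 5.71e-06, edgeR). Stat3, which the receptors of IL-22 and IL-6 activate, rose by 1.12 (adjusted p = 7.31e-09, edgeR). Rela, an NF-κB subunit, rose by 0.72 (adjusted p = 2.58e-07, edgeR). Among the genes of factors that bind the X and Y boxes, none was called higher. Rfx5 at -0.41, Nfyb at -0.44 and Creb1 at -0.39 were lower (adjusted p = 0.0333, 0.00066 and 0.0232, edgeR), and Rfxap, Rfxank, Nfya and Nfyc were not called. Ciita, the class II coactivator, was not tested, with 4 to 20 counts in WT libraries and 17 to 45 in KSR23 libraries, and its CPM overlapped between the groups.

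Of the interferon genes, 4 were looked up, and no interferon alpha gene was among them. Ifng had 1 count in 1 WT library and 4 and 2 counts in 2 KSR23 libraries, and 0 in the other 7. Ifnb1, Ifnl2 and Ifnl3 had 0 counts in all libraries, which allows up to 0.0519 to 0.179 CPM per library. These counts cover RNA of the pancreas only. In serum, the study found IL-22, IFNγ and IL-1β protein significantly raised in KSR23 mice at P5, with IL-22 raised the most. Of 12 tested receptor and signalling genes 9 were higher and none lower, with a median log2 FC of 0.31. Socs3, a feedback inhibitor of STAT3 signalling, rose from 10.2 ± 1.25 to 63.8 ± 18.0 CPM (log2 FC 2.65, adjusted p = 3.80e-10, edgeR). Usp18, a feedback inhibitor of type I interferon receptors, rose by 0.97 (adjusted p = 0.0012), Ifnlr1 by 0.75 (adjusted p = 0.0242) and Ifnar2 by 0.40 (adjusted p = 0.000449) in edgeR's test. Of 27 other interferon-stimulated genes tested, 24 were higher and none lower, with a median log2 FC of 1.07. Zbp1, a nucleic acid sensor, rose by 2.83 (adjusted p = 7.89e-08, edgeR). The immunity-related GTPases Iigp1 and Igtp rose by 2.30 and 1.96, and Ifit1, an antiviral RNA-binding protein, by 1.87 (adjusted p = 3.77e-08, 3.45e-08 and 3.04e-07, edgeR).

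MHC class II genes, which present peptide to CD4 T cells and belong to fewer cell types, rose as well, with a higher median. All 6 tested class II genes were higher, with log2 FCs of 1.37 to 2.15 and a median of 1.85. Cd74, the invariant chain that guards the class II groove, rose from 22.1 ± 3.88 to 98.6 ± 26.8 CPM (log2 FC 2.15, adjusted p = 1.05e-08, edgeR). The class II chains H2-Eb1, H2-Aa and H2-Ab1 rose by 1.89, 1.87 and 1.83 (adjusted p = 1.29e-07, 1.23e-06 and 7.13e-08, edgeR). Summed over the class II list, CPM ranged from 33.2 to 52.1 in WT mice against 123 to 232 in KSR23 mice, and the largest sum was in replicate 1. The difference between the class I and class II lists was not tested.

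Markers of some other cell types also differed between the groups. The pancreas was sequenced whole, so more cells of a type and more RNA per cell cannot be told apart. All 5 markers of all leukocytes were higher, with a median log2 FC of 0.77, and their summed CPM ran from 54.9 to 70.6 in WT mice against 79.0 to 140.5 in KSR23 mice. Ptprc, which encodes CD45, rose by 0.69 on the log2 scale (adjusted p = 0.00553, edgeR), with 5.13 to 6.92 CPM in WT mice and 5.75 to 12.9 CPM in KSR23 mice, which overlap. Of 8 tested macrophage and monocyte markers 6 were higher and 1 lower, and the sum was 371 to 455 CPM in WT mice and 394 to 664 CPM in KSR23 mice. Cd68 rose by 0.59 on the log2 scale. Of 7 tested neutrophil markers 5 were higher, and the sum was 9.99 to 35.2 CPM in WT mice and 39.6 to 320.3 CPM in KSR23 mice. The highest sum was that of replicate 3, the mouse with the highest B2m, H2-K1 and H2-D1, and S100a8, a neutrophil granule gene, was at 76.4 CPM there and at 9.90 to 17.6 CPM in the other KSR23 mice. The 8 rises were called without replicate 3 as with it.

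Tested T and NK cell markers moved in both directions, and tested B cell markers were not called. Of 3 tested T and NK cell markers 1 was higher, 1 lower and 1 not called, and the sum was 4.92 to 6.22 CPM in WT mice and 3.45 to 6.94 CPM in KSR23 mice. Cd3e, a chain of the T cell receptor complex, was lower, with 87 to 140 counts in WT libraries and 33 to 66 in KSR23 libraries (log2 FC -1.50). It was at 3.06 to 4.81 CPM in WT mice and at 0.831 to 2.01 CPM in KSR23 mice. Cd3e thus made up most of the WT sum, and the overlap of the sums does not show how the other markers moved. Of the other chains of the T cell receptor complex, Cd3g was higher, with a log2 FC of 0.87 (adjusted p = 0.0321, edgeR). Cd3d could not be tested and was at 0.0687 to 0.176 CPM in WT mice against 0.324 to 0.615 CPM in KSR23 mice. Cd8a had 0 counts in the 5 WT libraries and 1, 2, 4, 2 and 2 in the KSR23 libraries. None of 3 tested B cell markers was called, with a sum of 2.77 to 5.48 CPM in WT mice and 2.61 to 5.19 CPM in KSR23 mice. The dendritic cell markers summed to 9.25 to 14.2 CPM in WT mice and 9.99 to 12.8 CPM in KSR23 mice. Of the 7 duct cell markers 6 were higher and none lower, of the 12 acinar cell markers 1 was higher and 10 lower, and of the 8 islet cell markers 1 was higher and 7 lower. Endothelial markers divided into 2 higher, 2 lower and 2 not called, and 1 of 6 fibroblast and stellate cell markers was higher. Of the 6 erythroid markers 2 were tested and not called, and the other 4 were at 0. The part of these cell types in the class I values was not tested.

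**Figure D4:**
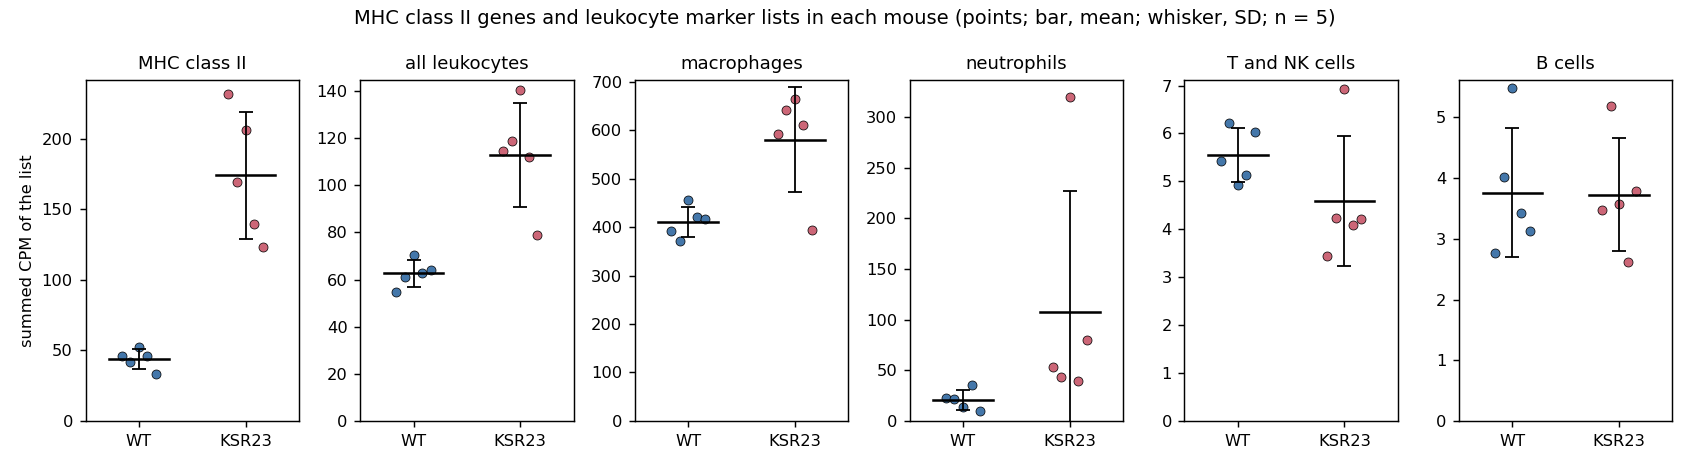
Summed CPM (y axes, linear and starting at 0) of the MHC class II list and of 5 leukocyte marker lists in each mouse. Points are mice, bars the mean and whiskers the SD (n = 5 each, the lower neutrophil whisker in KSR23 mice running below the axis). The class II, all-leukocyte and neutrophil sums do not overlap between the groups, 1 KSR23 mouse reaches 320.3 CPM for neutrophil markers, and the T and NK cell and B cell sums overlap.

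The genes whose pattern over the 10 libraries lay closest to the mean pattern of the 9 tested genes were Kcnn4, Pld4, Rbp4, Scx and Ckb. Psmb10, which fell, is among the 9 and makes the rise of this mean pattern smaller. Likeness was the root mean square difference in centred log2 CPM, which was 0.100 for Kcnn4, 0.120 for Pld4, 0.126 for Rbp4, 0.127 for Scx and 0.130 for Ckb. These 5 genes had log2 FCs of 0.84 to 1.10. Kcnn4 encodes a calcium-activated potassium channel, Pld4 an exonuclease of phagocytes and Rbp4 the carrier of retinol in blood. Scx encodes a transcription factor of tendon cells and Ckb a creatine kinase.

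Of the 24 other genes with TGACG and ATTGG at the spacing of 20 bases, 17 could be tested, and 5 were higher, 2 lower and 10 not called. The higher ones were Per1 at 0.98, H2-M3 at 0.81, Nfe2l1 at 0.45, Glyr1 at 0.22 and Xpnpep1 at 0.22, and the lower ones were Kcnq1ot1 at -0.77 and Calu at -0.23 on the log2 scale. These genes were named after their values were seen. The 5 of 17 that were higher compare with 16.2% of all tested genes.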

How the data were processed

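Pancreas RNA of 5 WT and 5 KSR23 mice was analysed, grouped by the sample labels. Jejunum libraries were not analysed here. Per the study's methods, 100 pg of RNA was primed with oligo-dT (SMART-Seq v4), amplified with 15 PCR cycles and, after tagmentation, with 12 more. Single-end 75-base reads were aligned to mm10 with TopHat2 2.1.0 and counted with HTSeq 0.6.1p1 (submitters' processing notes). The deposited values are the authors' raw counts per gene, from uniquely aligned reads and not normalized. The annotation and strand setting are not given in the sources used here, and reads copied by PCR were counted separately. Tallies of reads given to no gene were kept apart, and reads in no feature were 4.89% to 6.36% of the uniquely aligned reads.

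Genes under 5 counts in any library were removed. Counts were TMM-scaled and tested with edgeR 4.0.16 (quasi-likelihood F test, R 4.3.3) with Benjamini-Hochberg adjustment and a threshold of 0.05. The standard error is the size of the log2 FC divided by the root of F. CPM uses TMM-scaled library sizes, and log2 CPM a prior count of 2. Single values were compared by exact permutation. Each library was counted as 1 mouse. The labels number the replicates without tying them to animals, so p-values measure the spread between these libraries. The least chi-square per degree of freedom between libraries of a group was 11.8. The test was tested on simulated data. Positions and 75-base windows come from GENCODE M21, and promoters from RefSeq.

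The 10 genes, the gene lists and the naming rule were chosen with earlier results of these data known. Named were all 10 genes, up to 4 called genes per pathway list with the largest change, a fixed set of subunits, regulators and markers, and the 5 genes nearest in pattern. The values of 2 genes under this rule are not reported here. Rela, Rfx5, Nfyb, Creb1, Rfxap, Rfxank, Nfya, Nfyc, Canx, Hfe, Mr1, Cd3d, Cd3g and Il12b were named after their values were seen. Alternatives were RLE factors, totals alone, totals without the 50 highest genes, the likelihood ratio test, DESeq2 1.42.0, 3 other filters, the replicate block and leaving out each library.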

Additional observations from a re-analysis of the deposited data

Results flagged for a closer look

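Dixon's test was run on the CPM of 32 groups of 5 mice, of which chance alone flags about 1.6, and it set apart 1 mouse in 4 of them. The mouse was KSR23 replicate 3, the smallest library, each time. Its B2m was at 301.5 CPM, with 132 to 162.5 CPM in the other KSR23 mice. Its H2-K1 was at 394.5 CPM, with 190 to 215 CPM in the others. Its H2-D1 was at 171.5 CPM, with 84.7 to 101 CPM in the others. Its Psmb8 was at 28.9 CPM, with 21.4 to 23.4 CPM in the others. The same mouse had the highest sum of neutrophil markers, at 320.3 CPM, and the part of this in the 4 values was not tested.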

How the results depend on the processing

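Across 19 alternatives, the 9 tested genes kept their direction and their call in each (largest adjusted p 0.000432, edgeR or DESeq2). With each library left out in turn, the log2 FC ranged from 0.90 to 1.26 for B2m, 1.12 to 1.44 for H2-K1, 0.84 to 1.13 for H2-D1 and -0.65 to -0.53 for Psmb10. In the same way, the difference in log2 CPM of Nlrc5 ranged from 2.82 to 3.16. Other counts moved. With totals alone, 1161 genes were lower. The 3 calls in the 20S core became 1 with totals alone, 5 without the 50 highest genes, 5 by DESeq2 and 1 with the replicate block. With a library left out they ranged from 1 to 6, with 1 without WT replicate 1 or 3 or KSR23 replicate 1 or 5, 5 without KSR23 replicate 2 and 6 without WT replicate 5. The 3 calls in the 19S cap became 6 with totals alone and ranged from 2 to 5 with a library left out, the 5 being without WT replicate 1. The 4 calls among activators became 2 with the replicate block. The cause of these shifts was not tested. The groups share replicate numbers, but same-numbered libraries did not deviate together (correlations -0.11, 0.07, -0.06, -0.10 and -0.06). With the block, 1998 genes were higher and 1751 lower, and the changes in ratio of 1.61, 1.25 and -0.42 had an exact p of 0.0625, the smallest that 5 pairs allow. Low counts limit Nlrc5, Ifng, Il12b and Cd8a.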
